A study of Mus musculus with 4 samples.

Results

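Nodal is a secreted ligand of the TGF-beta superfamily that signals through type I and type II activin receptors with the help of the co-receptor Cripto, the product of Tdgf1. The receptors phosphorylate Smad2 and Smad3, which enter the nucleus with Smad4, and Lefty1, Lefty2 and Smad7 hold the pathway back. The Lefty genes are themselves induced by the pathway in embryonic stem cells and embryos, and Sox2, a factor that binds DNA through an HMG box, maintains these cells together with Oct4. The genes described here are 7 of this pathway: the extracellular antagonists Lefty2 and Lefty1, the ligand Nodal, its co-receptor Tdgf1, the type II receptor Acvr2b, the transducer Smad3 and the inhibitory Smad7. They are 7 of 21887 protein-coding genes of the RefSeq table used, and each was given by name. A peak was assigned to a gene when its centre lay in the gene body or no more than 50 kb outside it.

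The peaks came from ChIP-exo, in which an exonuclease trims precipitated DNA up to the crosslinked protein, in D3 mouse embryonic stem cells. There was 1 library in each of 4 groups: Halo-Sox2M, a fusion of Sox2 to the HaloTag protein with changes labelled M47G, F50 and M51G (the residue that replaces F50 is not named), Halo-Sox2D, a fusion that keeps Sox2 residues 1 to 120, Halo-Sox2, the fusion of the unchanged protein, and endogenous Sox2. The 3 fusions were captured on HaloLink resin and endogenous Sox2 with an antibody, so the tag and the capture cannot be told apart when Halo-Sox2 is set against endogenous Sox2. The sources used here do not say how the fusions were expressed, and peak lists hold no expression by which the cell type could be checked.

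The lists held 1711 Halo-Sox2M peaks, 13833 Halo-Sox2D peaks, 6558 Halo-Sox2 peaks and 7153 endogenous Sox2 peaks, all 1 to 20 bp wide. They carry positions and no height, score or read number, so read depth is unknown. A gene without a peak is one where none was listed at that depth and threshold. No test between groups was made, since each group is a single library and its spread is unknown. All positions are mm10 and 1-based, and "below" and "above" a gene mean towards lower and higher coordinates.

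Sequence was at hand for promoter windows of genes and not for the peaks elsewhere. Lefty1, Lefty2 and Smad7, which held all Halo-Sox2 and endogenous Sox2 peaks at the 7 genes, had no window. The share of all listed peaks that fell in promoter windows was not counted. Of the 33 distinct peaks at the 7 genes, 2 fell in such a window, and both were Halo-Sox2D peaks in promoters of neighbouring genes, Sde2 beside Lefty2 and Eif4ebp2 beside Nodal. They are shown because one of them is the sole peak assigned to Nodal, and the upstream stretch of Nodal itself is set beside them because it holds a Sox core and no peak. The window of Acvr2b also holds a Sox core and no peak, and is not shown. The sequences are from RefSeq (GRCm38.p6, whose chromosomes have mm10 coordinates), read 5′ to 3′ on the strand of the gene. Each reaches up to 50 bases to either side of the peak or core. The Eif4ebp2 stretch is cut where the gene body begins and the Nodal stretch at the lower edge of its promoter window. Capitals mark the bases of the peak in the first and second sequences and the Sox core in the third.
Sde2, chr1:180850927-180851033, plus strand: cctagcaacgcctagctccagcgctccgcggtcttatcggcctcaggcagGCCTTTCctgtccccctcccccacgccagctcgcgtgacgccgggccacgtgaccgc
Eif4ebp2, chr10:61452791-61452880, minus strand: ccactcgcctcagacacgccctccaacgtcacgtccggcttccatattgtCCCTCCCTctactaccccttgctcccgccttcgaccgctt
Nodal, chr10:61417722-61417785, plus strand: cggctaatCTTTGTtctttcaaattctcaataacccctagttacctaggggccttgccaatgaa

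Neither stretch under a peak held the Sox core ACAAAG or ACAATG on either strand. Of 32851 promoter windows, 12.0% held such a core at the same offsets as the Sde2 stretch and 10.2% at those of the Eif4ebp2 stretch. The G and C content was 71.0% in the Sde2 stretch and 62.2% in the Eif4ebp2 stretch, against medians of 51.4% and 51.1% over all windows at these offsets. In the Nodal stretch the core CTTTGT, which is ACAAAG on the other strand, begins 242 bases below the gene. Among the 4 of the 7 genes with a window of 300 bases in the RefSeq table, Nodal and Acvr2b held a Sox core, and Tdgf1 and Smad3 did not. Over all windows 28.6% held one. The octamer ATGCAAAT and the FoxH1 words AATCCACA and AATACACA were absent from these 4 windows (1.74% and 1.82% of all windows held them), and the Smad word CAGAC occurred in those of Tdgf1 and Acvr2b (49.6% of all). None of the 4 windows held a peak of any library. These matches describe letters in the windows only.

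Over the 7 genes, the numbers of peaks were highest at Lefty2, Lefty1 and Smad7. Lefty2 had 17 peaks over the 4 lists, Lefty1 had 11 and Smad7 had 11, whereas Tdgf1 had 3, Nodal and Smad3 had 1 each, and Acvr2b had 0. The windows of Lefty1 and Lefty2 overlap, and 11 peaks were counted for both. By library, Halo-Sox2M had a peak at 0 of the 7 genes, Halo-Sox2D at 6 (85.7%), Halo-Sox2 at 2 (28.6%) and endogenous Sox2 at 3 (42.9%). By the same rule, the background over the 21887 protein-coding genes was 6.37% for Halo-Sox2M, 57.7% for Halo-Sox2D, 32.3% for Halo-Sox2 and 27.4% for endogenous Sox2. With 7 genes, and with the same peaks counted for both Lefty genes, none of these 4 shares is a result about the pathway.

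**Figure D1:**
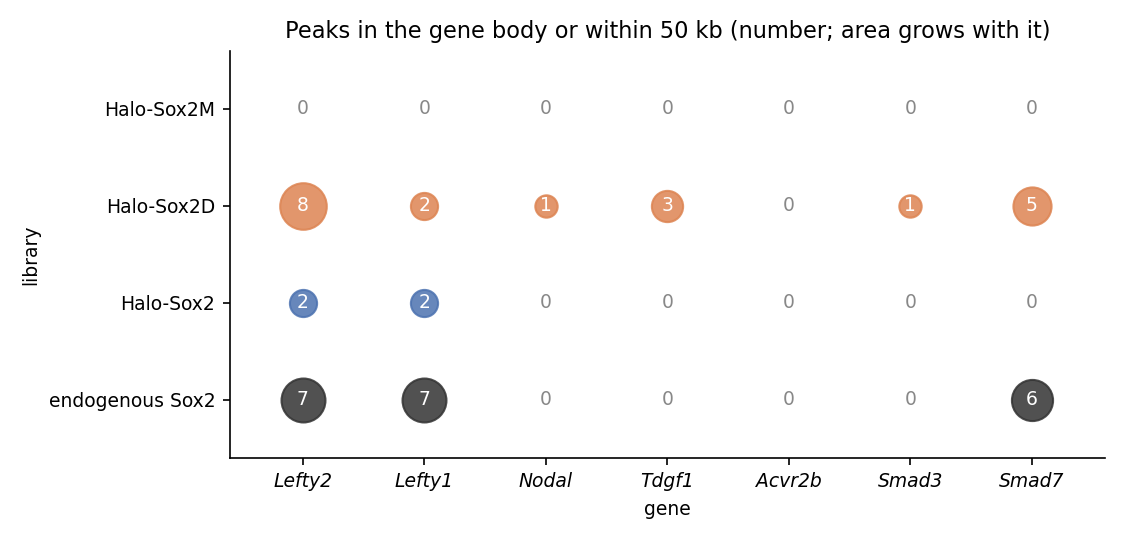
Number of peaks in the body of each gene or within 50 kb of it (columns) in each of the 4 libraries (rows), 1 library per group; the area of a circle grows with the number printed in it. Endogenous Sox2 peaks stood at Lefty2 (7), Lefty1 (7) and Smad7 (6) alone, Halo-Sox2 peaks at the Lefty genes (2 each), and Halo-Sox2M had none.

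The distinct peaks numbered 0 of 1711 for Halo-Sox2M, 18 of 13833 for Halo-Sox2D, 2 of 6558 for Halo-Sox2 and 13 of 7153 for endogenous Sox2. For Halo-Sox2M the limit that a count of 0 allows, taken as 3 peaks of its list, was 0.175%, and the upper end of its 95% Wilson interval was 0.224%. The share was 0.13% for Halo-Sox2D (95% Wilson interval 0.0823 to 0.206%). It was 0.0305% for Halo-Sox2 (interval 0.00836 to 0.111%) and 0.182% for endogenous Sox2 (interval 0.106 to 0.311%). The intervals and the limit for 0 cover counting error only, and they are too narrow where peaks of 1 list lie side by side, as the endogenous Sox2 peaks here do.

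A gene's window can reach into its neighbours, so the nearest protein-coding gene of each peak was also taken. All 13 endogenous Sox2 peaks and both Halo-Sox2 peaks lay nearer to one of the 7 genes than to any other protein-coding gene. Of the 18 Halo-Sox2D peaks, 6 did so and 12 lay nearer to another gene. By nearest gene, Halo-Sox2D peaks thus stood at Lefty2, Lefty1, Smad3 and Smad7, and none stood at Nodal or Tdgf1. Such shares were not counted over all genes, and the endogenous Sox2 peaks lay in 5 places. These counts are therefore no result about the libraries.

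Lefty2 and Lefty1 encode secreted antagonists that bind Nodal or its co-receptor, and they lie 35.9 kb apart on chromosome 1. Lefty2 (180893108 to 180899107) had 0 Halo-Sox2M, 8 Halo-Sox2D, 2 Halo-Sox2 and 7 endogenous Sox2 peaks. Lefty1 (180935022 to 180938401) had 0, 2, 2 and 7 in the same order. The 7 endogenous Sox2 peaks were the same ones at both genes. At least 7 were counted at 0.653% of all protein-coding genes, and 2 or more Halo-Sox2 peaks at 11.3%. The 8 Halo-Sox2D peaks of Lefty2 were matched or exceeded at 1.7% of genes, but 6 of them lay nearer to Sde2. Within 20 kb, Lefty2 had 0 Halo-Sox2M, 2 Halo-Sox2D, 2 Halo-Sox2 and 3 endogenous Sox2 peaks, and Lefty1 had 0, 1, 0 and 4. With peaks of a list within 100 bp counted as 1, endogenous Sox2 had 4 at each gene. The share of all genes with as many by that count is not given here, so 0.653% holds for the listed peaks only.

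The place where libraries met lay 4.24 to 4.29 kb below Lefty2. Halo-Sox2D had 1 peak there (180888811 to 180888818) and Halo-Sox2 had 1 (180888833 to 180888843). Endogenous Sox2 had 3, at 180888820 to 180888837, at the single base 180888837 and at 180888866 to 180888869. These 5 peaks spanned 59 bp. The centre of the Halo-Sox2 peak lay 1.0 bp from that of the nearest endogenous Sox2 peak, and they overlapped by 1 bp. It also overlapped the wider endogenous peak by 5 bp. The Halo-Sox2D peak overlapped neither: its centre lay 23.5 bp from that of Halo-Sox2 and 14 bp from that of the nearest endogenous Sox2 peak.

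When peaks of all lists were joined into places wherever centres followed each other within 500 bp, the 7 genes had 21 places and this was the sole one with more than 1 library. It counts for Lefty2 and, at 46.2 kb, for Lefty1. Of all protein-coding genes, 17.8% had a place of 2 or more libraries in their window and 3.99% a place of 3 or more. Over the genome, 409 of 19527 places held Halo-Sox2D, Halo-Sox2 and endogenous Sox2 without Halo-Sox2M (2.09%). Places of a single library were the rule, at 20 of 21 here and 87.1% of all places.

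**Figure D2:**
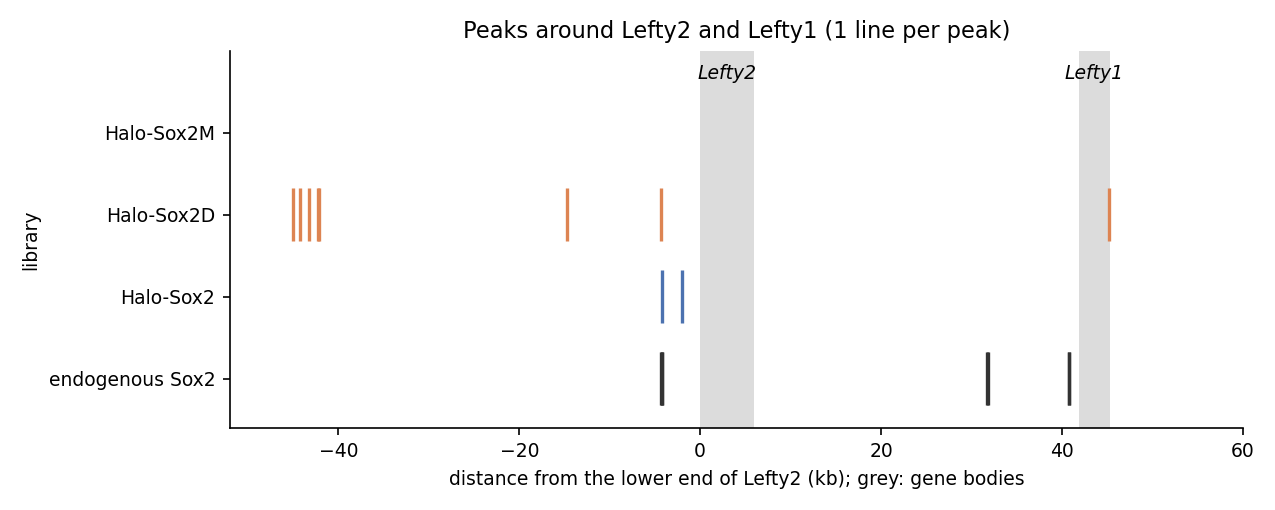
Peaks within 50 kb of Lefty2 by library (rows) against the distance in kb from the lower end of Lefty2; each line is a peak and grey bands are the gene bodies of Lefty2 and Lefty1. Halo-Sox2D, Halo-Sox2 and endogenous Sox2 met 4.24 to 4.29 kb below Lefty2, and the 4 peaks between the genes were all of endogenous Sox2.

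The remaining peaks of the Lefty region belonged to 1 library each. Halo-Sox2 had its other peak at 180891092 to 180891108, which is 2.01 kb below Lefty2 and the peak nearest to that gene in any list. Endogenous Sox2 had 2 further places between the genes, both within the long non-coding RNA gene Gm39715. The one nearer to Lefty1 held peaks at 180933863 to 180933875 and 180933885 to 180933893, 1.15 and 1.13 kb below Lefty1. The other held peaks at 180924776 to 180924785 and 180924900 to 180924908, 10.2 and 10.1 kb below it. Halo-Sox2 and Halo-Sox2D had no peak at these places. Over the genome, 58.7% of the 4557 endogenous Sox2 places held no other library, against 4 of 5 at the 7 genes. For Halo-Sox2 it was 67.7% of 5206 places, against 1 of 2.

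Halo-Sox2D had a peak inside Lefty1, at 180938265 to 180938272, 0.133 kb from the upper end of the gene, where no other library had one. Its remaining 6 peaks lay far below Lefty2. One was in the long non-coding RNA gene Gm39714 (180878339 to 180878354), 14.8 kb below Lefty2. The other 5 ran from 180848098 to 180850983, 0.171 to 3.05 kb below Sde2, and the uppermost is the one shown in the Sde2 sequence.

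Nodal, the ligand, had 1 peak, and Tdgf1, its co-receptor, had 3, all of Halo-Sox2D. The Nodal peak (chromosome 10, 61452823 to 61452830) lay 27.5 kb above the gene (61417972 to 61425338) and 36.5 bp from the body of Eif4ebp2, which encodes a repressor of cap-dependent translation. The Tdgf1 peaks lay 8.28, 15.3 and 19.1 kb above the gene (chromosome 9, 110939608 to 110946158), all inside the neighbouring gene Lrrc2. They were at 110954435 to 110954446, 110961442 to 110961457 and 110965245 to 110965257. Tdgf1 is on the minus strand in the promoter table, so this is its upstream side. At least 1 Halo-Sox2D peak was counted at 57.7% of all genes and at least 3 at 22.2%.

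Beyond the window, the nearest Halo-Sox2 and endogenous Sox2 peaks lay 403.8 and 102.4 kb from Nodal. From Tdgf1 they lay 54.2 and 616.4 kb away. The medians over all protein-coding genes were 117.3 kb for Halo-Sox2 and 143.8 kb for endogenous Sox2. The nearest endogenous Sox2 peak was thus closer to Nodal, and farther from Tdgf1, than the median. Halo-Sox2 went the other way at both genes. These are single distances, set against medians without a spread.

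Acvr2b, a type II receptor that binds activin and Nodal (chromosome 9, 119401583 to 119442148), had no peak in any list. The nearest peaks were 60.5 kb away for Halo-Sox2D and 129.3 kb away for both Halo-Sox2 and endogenous Sox2. Smad3, the transducer (chromosome 9, 63646766 to 63757994), had 1 Halo-Sox2D peak at 63735570 to 63735579. It lay inside the gene, 22.4 kb from its upper end, where the minus-strand promoter of the table stands, and also within the long non-coding RNA gene Gm51710. The nearest Halo-Sox2 peak was 201.3 kb and the nearest endogenous Sox2 peak 123 kb from Smad3.

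**Figure D3:**
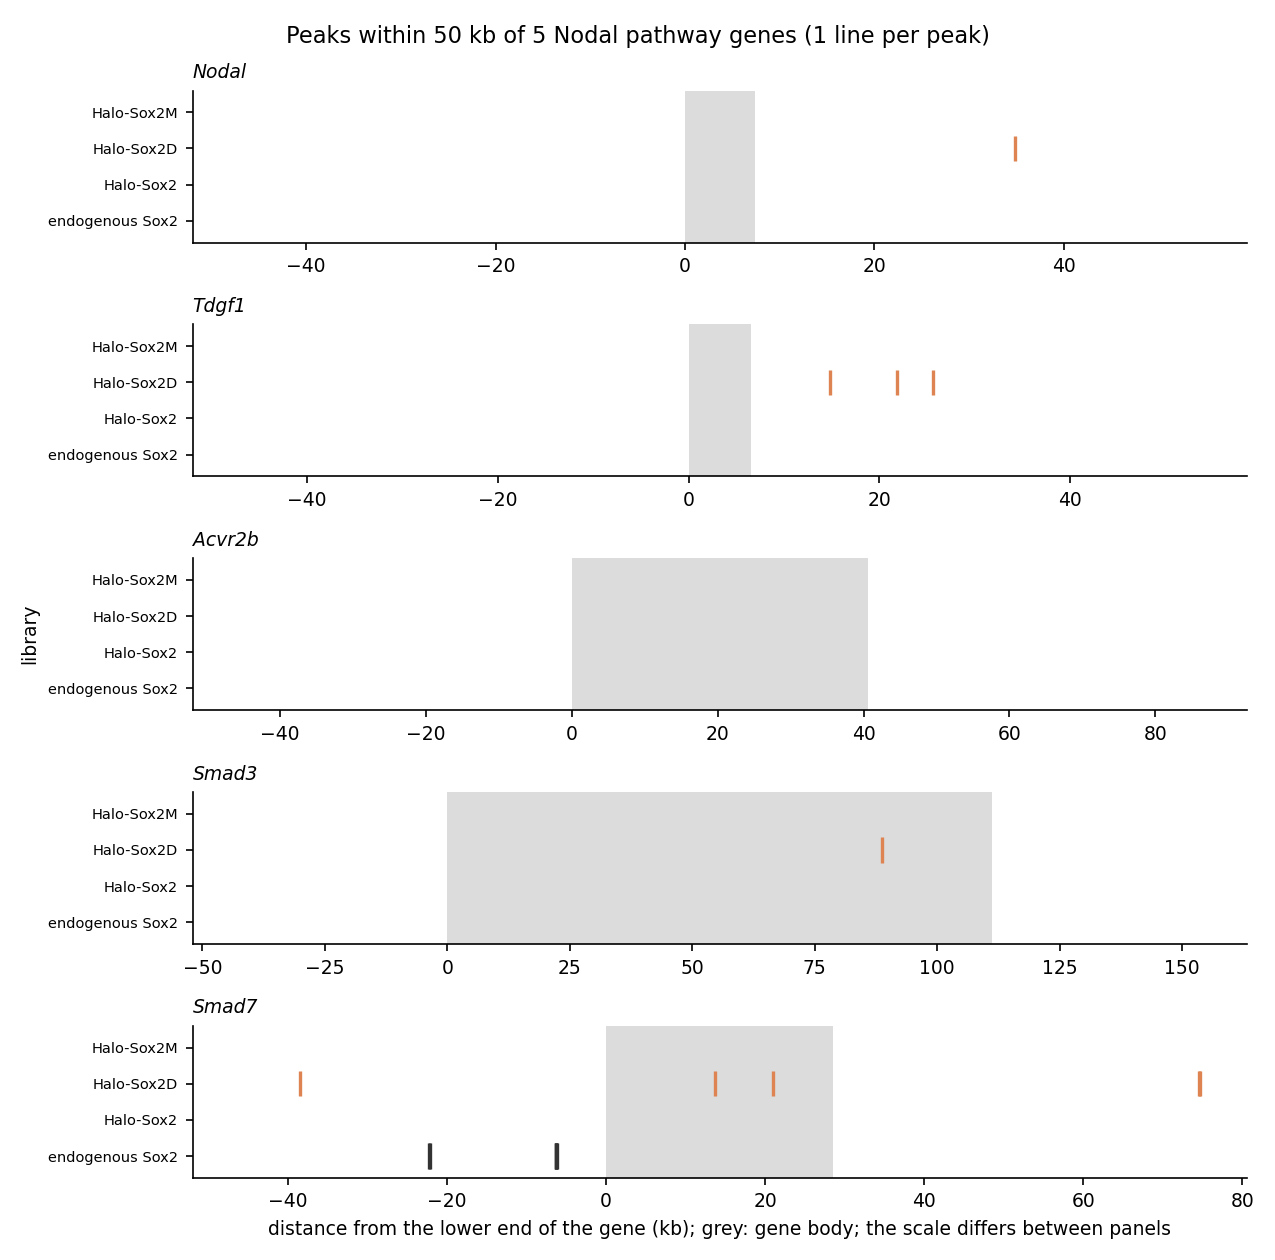
Peaks within 50 kb of Nodal, Tdgf1, Acvr2b, Smad3 and Smad7 (panels) by library (rows) against the distance in kb from the lower end of the gene; each line is a peak, lines closer than the drawing can part run together, and grey bands are gene bodies. Nodal, Tdgf1 and Smad3 had Halo-Sox2D peaks alone, Acvr2b had none, and endogenous Sox2 lay below Smad7 while 2 Halo-Sox2D peaks lay inside it.

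Smad7 encodes an inhibitory Smad that competes for the activated type I receptor and helps to degrade it. The gene (chromosome 18, 75367365 to 75395935) had 0 Halo-Sox2M, 5 Halo-Sox2D, 0 Halo-Sox2 and 6 endogenous Sox2 peaks. At least 6 endogenous Sox2 peaks were counted at 1.06% of all protein-coding genes, and at least 5 Halo-Sox2D peaks at 8.32%. The 2 libraries with peaks shared no place at this gene. Over the genome, 58.7% of the 4557 endogenous Sox2 places and 85.1% of the 11913 Halo-Sox2D places held no other library. Within 20 kb Smad7 had 2 Halo-Sox2D and 4 endogenous Sox2 peaks, and with peaks within 100 bp counted as 1 it had 4 and 3. The shares of all genes by that last count are not given here.

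Endogenous Sox2 held 2 places, both below Smad7. The nearer place, inside the long non-coding RNA gene Gm20544, held 4 peaks at 75361016 to 75361026, 75361030 to 75361041, 75361058 to 75361063 and 75361114 to 75361123. They spanned 108 bp, 6.25 to 6.34 kb below the gene, with 14.5, 25 and 58 bp between consecutive centres. Of the 4557 endogenous Sox2 places over the genome 173 held 4 or more of its peaks (3.8%), and of the 2673 with no other library 27 did (1.01%). The number of peaks per place was taken up after the peaks were seen. With peaks of a list within 100 bp counted as 1, the 4 peaks here become 1. The farther place held peaks at 75345029 to 75345034 and 75345221 to 75345228, 22.3 and 22.1 kb below the gene.

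Halo-Sox2D peaks lay elsewhere: 2 inside Smad7, at 75381021 to 75381039 and 75388388 to 75388404, 13.7 and 21.0 kb above its lower end, 1 at 75328799 to 75328817, 38.6 kb below it, and 2 inside the neighbour Ctif, 46.0 and 46.1 kb above it. Just outside the window, the other libraries came in. A Halo-Sox2 peak (75449868 to 75449881) and 2 Halo-Sox2D peaks stood 53.8 to 53.9 kb above Smad7. A Halo-Sox2M peak (75465045 to 75465055), 3 Halo-Sox2D peaks and an endogenous Sox2 peak (75465089 to 75465104) stood 69.1 to 69.2 kb above it, nearer to Ctif. This was the Halo-Sox2M peak closest to any of the 7 genes. At the other 6 genes the nearest one was 381.1 kb (Smad3) to 2647.8 kb (Lefty1) away, against a median of 1027.8 kb over all genes.

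**Figure D4:**
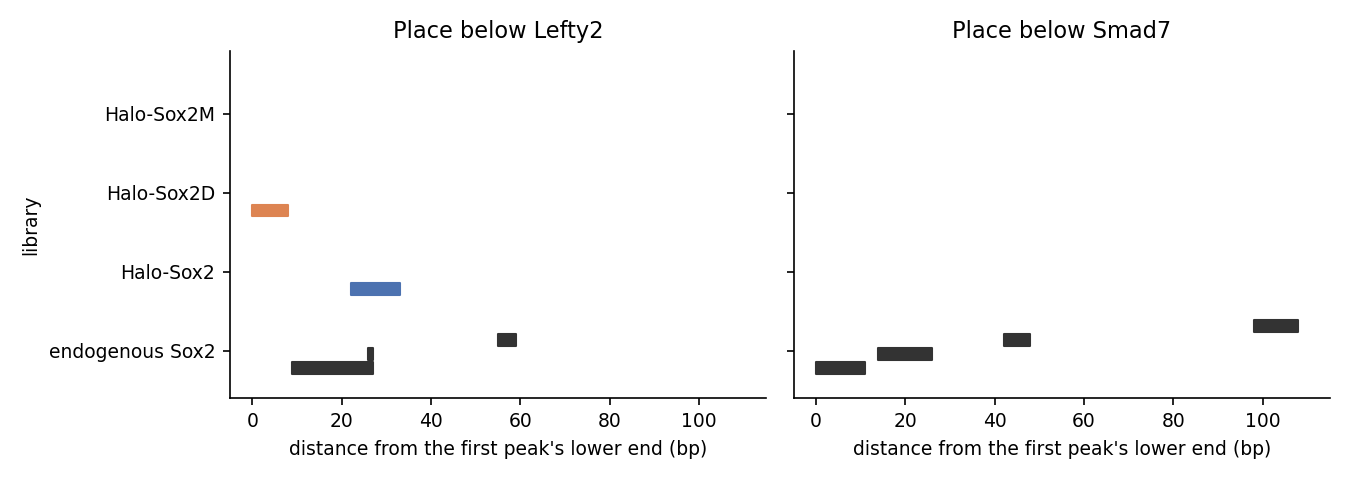
Peaks of the shared place below Lefty2 (left) and of the endogenous Sox2 place below Smad7 (right) by library (rows), against the distance in bp from the lower end of the first peak; each bar is a peak drawn to its width, and bars of 1 library are staggered only for legibility. The Lefty2 place spanned 59 bp with peaks of 3 libraries, and the Smad7 place 108 bp with 4 endogenous Sox2 peaks.

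The endogenous Sox2 places at these genes shared a feature that was not planned and was picked after the peaks were seen. It therefore only describes these places, which all lie at the Lefty genes or Smad7. All 5 held 2 or more peaks of that library, and 2 of 5 held 3 or more. Over the genome 26.2% of the 4557 endogenous Sox2 places held 2 or more and 9.77% held 3 or more. These counts rest on peaks that lie close together: with peaks of the list within 100 bp counted as 1, a choice made after seeing the data, 2 of 5 held 2 or more (5.46% of 4563 over the genome) and 0 of 5 held 3 or more (0.526%). Centres of consecutive endogenous peaks in a place lay 8.5 to 193.0 bp apart. Of the 16 Halo-Sox2D places, 2 held more than 1 Halo-Sox2D peak (9.83% of 11913 over the genome), and 15 held no other library (85.1% over the genome). The Halo-Sox2D places were thus close to those of the whole list in both respects.

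The rest of the pathway was described with a list of 29 other genes. Of these, 2 had a Halo-Sox2M peak (Tgif2 and Skil, 6.9%), 21 a Halo-Sox2D peak (72.4%), 15 a Halo-Sox2 peak (51.7%) and 9 an endogenous Sox2 peak (31.0%), and 4 had none (Acvr2a, Inhba, Mixl1 and Tgfbr1). The median number of Halo-Sox2D peaks per gene was 2 among the 7 genes, 2 among the 29 and 1 over all protein-coding genes. That of Halo-Sox2 was 0, 1 and 0 in the same order, and the medians of Halo-Sox2M and endogenous Sox2 were 0 throughout. By role, the 10 inhibitors had 2 genes with a Halo-Sox2M peak, 7 with Halo-Sox2D, 6 with Halo-Sox2 and 5 with endogenous Sox2. The 6 ligand genes and processing enzymes had 0, 5, 4 and 3 in the same order of libraries, and the 6 receptor genes had 0, 3, 3 and 1. The 3 transducers had 0, 3, 1 and 0, and the 4 targets 0, 3, 1 and 0. The counts of 0 for endogenous Sox2 hold within 50 kb only. By nearest gene at any distance, the transducer Smad2 had 4 endogenous Sox2 peaks and the target Eomes 3. The ligand gene Gdf3 had 3 within 50 kb and 0 by nearest gene. In all, 10 of the 29 genes had an endogenous Sox2 peak by nearest gene. Set against 6.37%, 57.7%, 32.3% and 27.4% of all protein-coding genes, groups this small do not show a difference between roles.

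Tgif1, a homeobox corepressor of Smad2 and Smad3, led this list with 0 Halo-Sox2M, 7 Halo-Sox2D, 5 Halo-Sox2 and 8 endogenous Sox2 peaks. It had 4 places of 2 libraries each, 2 of them nearer to Dlgap1. The closest to the gene, 70866799 to 70866863 on chromosome 17, lay 13.3 kb above it and held 1 Halo-Sox2D and 2 endogenous Sox2 peaks. Ski, a corepressor that binds Smads, had 4 Halo-Sox2D and 4 endogenous Sox2 peaks. They met at 2 places inside the gene on chromosome 4: 155163311 to 155163534, with 1 Halo-Sox2D and 3 endogenous Sox2 peaks, and 155189833 to 155189862, with 2 and 1. Tgif2, a relative of Tgif1, had 1 peak of every library, and those of Halo-Sox2 and endogenous Sox2 met inside the gene at 156842282 to 156842307 on chromosome 2.

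At 4 further genes Halo-Sox2D met Halo-Sox2, with 1 peak each and no endogenous Sox2 peak at the place. This was inside Eomes, a T-box gene of mesendoderm induced by Nodal signalling (chromosome 9, 118482456 to 118482480). It was 38.1 kb above the type II receptor gene Tgfbr2, 31.7 kb above the activin subunit gene Inhbb and 33.0 kb below the ligand gene Gdf1. The Inhbb place lay nearer to Ralb and the Gdf1 place nearer to Homer3. In all, 7 of the 29 genes had a place of 2 libraries or more (24.1%, against 17.8% of all protein-coding genes), and 0 had a place of 3 (against 3.99%). With 29 genes, both counts lay near the background.

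**Figure D5:**
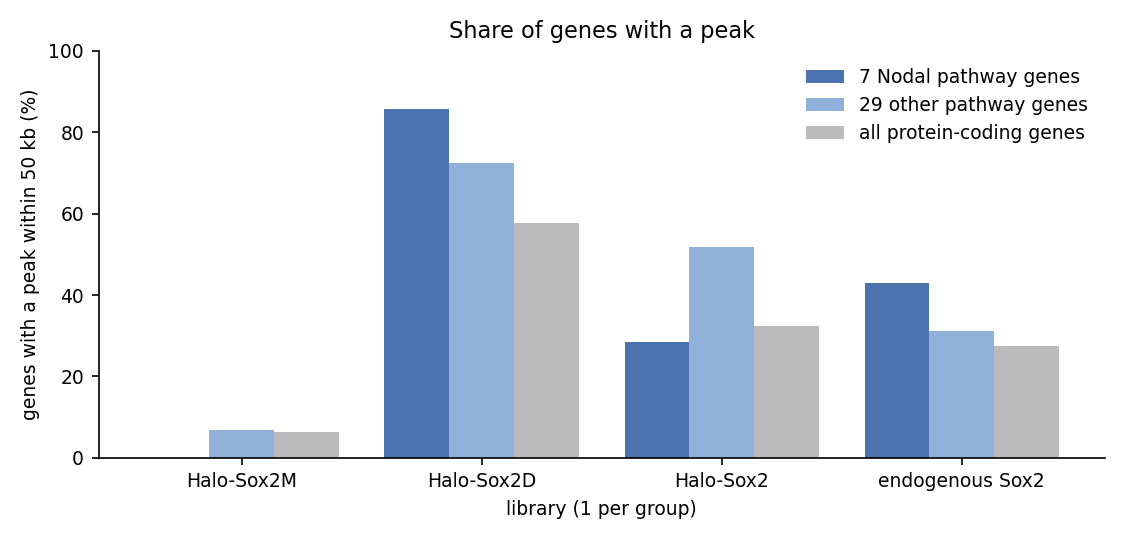
Percent of genes with a peak in the gene body or within 50 kb (vertical axis, from 0) in each library (1 per group), for the 7 Nodal pathway genes, the 29 other pathway genes and all 21887 protein-coding genes. For Halo-Sox2D the shares were 85.7, 72.4 and 57.7%, for Halo-Sox2 28.6, 51.7 and 32.3%, and for endogenous Sox2 42.9, 31.0 and 27.4%.

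Genes of like pattern were sought by the summed absolute difference in number of peaks over the 4 libraries. Genes whose window shares a peak with the member were left out. Closest to Lefty2 were Epb41l4a, Iqgap1, Mex3a and Rab25, each at a summed difference of 1. Iqgap1 had 0 Halo-Sox2M, 7 Halo-Sox2D, 2 Halo-Sox2 and 7 endogenous Sox2 peaks, and Epb41l4a had 0, 8, 3 and 7 in that order. Mex3a and Rab25 each had 1, 8, 2 and 7. Both are on chromosome 3, and whether their windows share these peaks was not checked. Closest to Smad7 were 11 genes at a difference of 1, of which the first 5 by alphabet were Fgf3, Il11, Irak3, Meaf6 and Ooep. Among the genes compared, none equalled Lefty2 or Smad7 in all libraries. The pattern of Nodal, with 1 Halo-Sox2D peak alone, was that of 2382 other genes (10.9%), and the pattern of Tdgf1 that of 645 (2.95%).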

How the data were processed

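Peaks of 4 ChIP-exo libraries were used, 1 per group as the labels give them. Per the submitters' processing notes, the authors used Bowtie2 and mm10. No source used here names the peak caller, its threshold or the read filters. The deposited lists hold starts (read as 0-based, written 1-based) and ends with no score. Gene bodies were taken from RefSeq (GRCm38.p6), in which all 7 members and 29 other pathway genes were found and which gives no exons, so exons, introns and UTRs were not told apart. Centres of any library within 500 bp of the next formed a place. Shares carry 95% Wilson intervals (scipy 1.17.1); Python 3.11.15, numpy 2.4.6 and pandas 2.3.3 did the counting, which was checked on simulated lists. Motifs were searched on both strands of promoter windows (250 bases before to 50 after a start). Alternatives were other windows, the nearest gene, merged peaks, other joining distances and removal of dense bins.

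The genes, lists and tests were chosen with earlier results of these data known. All 7 genes were named; of the others, those with a place of 2 or more libraries, those with no peak, and up to 5 of most like pattern for Lefty2 and Smad7. For Nodal and Tdgf1 the ties were too many for an alphabetical choice to mean anything, so only their number is given. Skil, Smad2, Gdf3, the genes without a peak and those just outside the windows were named after their values were seen. The number of endogenous Sox2 peaks per place was also taken up after the peaks were seen.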

Additional observations from a re-analysis of the deposited data

How the results depend on the processing

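No paired analysis was possible because each group had 1 library, so no library could be left out either. With windows of 20 kb in place of 50 kb, peaks at the 7 genes numbered 9 for Halo-Sox2D, Halo-Sox2 reached 1 gene, the places numbered 13, and 1 other pathway gene had a Halo-Sox2M peak. With windows of 100 kb, Halo-Sox2M reached 1 gene with 1 peak and Halo-Sox2 reached 4 genes with 4 peaks, Halo-Sox2D had 38 peaks, and there were 37 places, 3 of them shared. By nearest gene, Halo-Sox2D had 7 peaks (1 of them at Smad3 from outside 50 kb), Halo-Sox2 reached 1 gene, the places numbered 12, and 0 other pathway genes had a Halo-Sox2M peak. With peaks of a list within 100 bp counted as 1, endogenous Sox2 had 7 peaks, and of its 5 places at the genes 2 in place of 5 held 2 or more of its peaks and 0 in place of 2 held 3 or more, an alternative chosen after seeing the data. The other 74 summary values, among them all those without dense bins (11 bins of 100 kb with 15 or more peaks, mitochondrial DNA and unplaced sequence), with overlapping or abutting peaks merged, and with places joined at 50, 200 or 1000 bp, stayed within 1.5 times the reported ones. Of the values of single genes and promoters, 27 moved by more and 145 did not. The numbers of endogenous Sox2 peaks per place were not counted at the other joining distances, on which they can depend. A stricter peak threshold and a reciprocal overlap of 50% were not run, the first because the lists hold no score. Motifs at places outside promoters were not searched, as no genome sequence was used here.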
